A study of Mus musculus with 9 samples.

Results

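Bidirectional promoters are the short stretches between 2 genes that lie head to head on opposite strands and are transcribed away from each other. They were taken here as all pairs of protein-coding genes on chromosomes 1 to 19 of the mm9 mouse genome in which the transcription start site (TSS) of the minus-strand gene lies below that of the plus-strand gene and the 2 TSSs are at most 1 kb apart. In the GENCODE vM1 annotation this gave 789 pairs with 1562 genes, out of 21418 protein-coding genes on these chromosomes. Of these genes 16 took part in more than 1 pair, and 8 pairs of symbols occurred under 2 gene identifiers and were counted as 2 pairs each. The 2 TSSs were a median of 141 bp apart, with the middle 50% of pairs between 73 and 271 bp and a range of 1 to 987 bp.

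Acetylation of histone H3 at lysine 27 (H3K27ac), a mark of active promoters and enhancers, had been mapped by ChIP-seq. The cells were naive CD8+ T lymphocytes from mouse spleen, gated as GFP+ TCRbeta+ cells with the surface phenotype of naive cells, such as low to intermediate CD44. The study asked what the related transcription factors Tcf1 (encoded by Tcf7) and Lef1 do in these cells, and compared 4 wild type samples (WT, Tcf7+/+Lef1+/+) with 3 Tcf1-/-Lef1-/- samples (dKO, Tcf7 fl/fl Lef1 fl/fl). All mice were young adults on a C57BL/6 background and carried hCD2-Cre, which is active mainly in mature T cells, and a Rosa26 GFP reporter that lights up after Cre has acted, so that the GFP gate marked cells in which Cre had been active in either genotype. The replicates of a genotype were pooled before SICER, a caller of broad enriched regions, was run, so the data are 1 list of islands per genotype with the position and the count of each island. There is therefore no replicate check for any difference between WT and dKO below, and no p-value was computed. The 95% intervals cover the error of counting reads, pairs or genes only, not the spread between replicates.

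Bidirectional promoters are frequent in mammalian genomes. They are typically rich in CpG and free of a TATA box, they lie in 1 shared nucleosome-depleted region, and they serve many housekeeping genes of DNA repair, mitochondria and RNA metabolism. Active histone marks sit on the nucleosomes on either side of the depleted region, over the first part of both genes, so a caller with coarse windows such as SICER tends to read both flanks as 1 island. Head-to-head partners need not be expressed equally.

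The stretches between the TSSs show how compact these promoters are. The sequences below are the bases strictly between the 2 annotated TSSs on the plus strand of mm9 (NCBIM37 assembly), 5′ to 3′. No other annotated gene overlapped them, and they are upstream of both genes of the pair. Brca1/Nbr1 and Mrps12/Sars2 are shown as textbook pairs with an island in both genotypes, and Col4a4/Col4a3 as a textbook pair without one. The other 4 are among the pairs with the highest or lowest dKO to WT ratios of counts per covered kb. Island width moves those ratios, and in all 4 the ratio of summed island counts went the other way. Capitals mark exact matches to short promoter motifs, which here are the GC box GGGCGG, the box with the letters CCAAT and the NRF1 motif GCGCATGCG, or their reverse complements. The stretches lie at chr11:101413270-101413462 (Brca1/Nbr1), chr7:29526840-29527009 (Mrps12/Sars2), chr1:82583425-82583495 (Col4a4/Col4a3), chr1:184339152-184339302 (Gm10517/Trp53bp2), chr6:125141614-125141818 (Ncapd2/Mrpl51), chr4:106926138-106926197 (Lrrc42/Hspb11) and chr17:35035398-35035413 (C2/Ehmt2).
Brca1/Nbr1: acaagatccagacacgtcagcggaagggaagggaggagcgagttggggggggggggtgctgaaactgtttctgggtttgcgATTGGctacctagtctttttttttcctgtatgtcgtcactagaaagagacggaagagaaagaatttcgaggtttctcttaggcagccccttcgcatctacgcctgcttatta
Mrps12/Sars2: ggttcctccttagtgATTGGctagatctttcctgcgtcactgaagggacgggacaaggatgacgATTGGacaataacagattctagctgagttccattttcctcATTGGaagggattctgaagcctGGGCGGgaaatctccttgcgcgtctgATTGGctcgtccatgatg
Col4a4/Col4a3: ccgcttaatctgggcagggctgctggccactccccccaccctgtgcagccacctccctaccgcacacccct
Gm10517/Trp53bp2: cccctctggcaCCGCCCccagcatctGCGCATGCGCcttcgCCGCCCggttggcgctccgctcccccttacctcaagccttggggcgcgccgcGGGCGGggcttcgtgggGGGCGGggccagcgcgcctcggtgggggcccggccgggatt
Ncapd2/Mrpl51: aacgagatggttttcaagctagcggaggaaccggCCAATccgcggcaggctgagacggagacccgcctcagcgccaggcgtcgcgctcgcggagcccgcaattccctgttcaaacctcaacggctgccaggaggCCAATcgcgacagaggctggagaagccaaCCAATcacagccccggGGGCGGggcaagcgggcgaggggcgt
Lrrc42/Hspb11: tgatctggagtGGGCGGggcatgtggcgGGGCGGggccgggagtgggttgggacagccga
C2/Ehmt2: gacccgGGGCGGccgc

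The 193 bases between Brca1 and Nbr1 were 50.3% G+C with an observed to expected CpG ratio of 0.78, and the 170 bases between Mrps12 and Sars2 were 50% G+C with a ratio of 0.67. Col4a4 and Col4a3 were separated by 71 bases of 69.0% G+C, but with a CpG ratio of 0.29 and none of the motifs searched. A lack of motifs was not particular to this pair. The stretches of Rps27/Rab13 (43 bases, 41.9% G+C) and F630043A04Rik/Mrp63 (75 bases, 60% G+C), not shown above, held none either. Both of these pairs had islands in both lists. C2 and Ehmt2 had only 16 bases between their TSSs, which hold 1 GC box.

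Nearly all bidirectional promoters carried H3K27ac, and they did so in both genotypes. An island lay within 1 kb of either TSS at 745 of 789 pairs in WT, or 94.4% (95% Wilson interval 92.6 to 95.8%), and at 745 of 789 pairs in dKO. The lists shared 743 of these pairs, 2 had an island in WT alone, 2 in dKO alone, and 42 (5.32%) had none in either. The promoters drew on 730 of the 65563 WT islands and 726 of the 82213 dKO islands. These were 1.11% of WT and 0.883% of dKO islands and held 2.68% of WT and 2.5% of dKO island counts.

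The pair was covered as 1 unit. Of the 745 pairs with an island in WT, 743 (99.7%) had a single island over both TSSs, and in dKO this held for 742 (99.6%). In neither list did the 2 TSSs of a pair fall into different islands. For most pairs this was fixed in advance. SICER joined windows up to 400 bp apart, so nearer TSSs could not lie in different islands, and 622 pairs were at most 300 bp apart. Of the 154 pairs with a WT island and TSSs 301 to 1000 bp apart, 153 had 1 island over both TSSs. Among the 198 divergent protein-coding pairs with TSSs over 1 kb and up to 3 kb apart, 84.8% had an island in each list and a single island covered both TSSs at 77.4% of those in WT and 78.0% in dKO. There the TSSs lay in different islands at 17 pairs in WT and 21 in dKO. The share differed little with distance within 1 kb. An island was found in WT at 96.2% of the 292 pairs up to 100 bp apart, 93.9% of the 330 pairs from 101 to 300 bp and 92.2% of the 167 pairs beyond 300 bp, with overlapping intervals. The closest TSSs, 1 bp apart at Tubgcp2/Zfp511 (a gamma-tubulin complex subunit and a zinc finger protein) and 3 bp apart at Slc7a6os/Prmt7 (Prmt7 is an arginine methyltransferase), had 1 island over both TSSs in each list. Just inside 1 kb, Btf3l4/Txndc12 and Pdzd7/Sfxn3 (both 987 bp) had islands in both lists, as had Nacc1/Trmt1 (1004 bp) and Atg14/Gm6616 (1008 bp) just outside it.

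Protein-coding genes without a divergent protein-coding partner had islands less often. Per gene, with a window of 1 kb either side of its own TSS, an island was present in WT for 94.4% of paired genes (93.1 to 95.4%), for 81.1% (77.3 to 84.3%) of 486 genes with a divergent non-coding partner within 1 kb and for 59.0% (58.3 to 59.7%) of the other 19370 genes. The dKO shares were 94.4%, 80% and 59.4%. Sequence composition differed in the same order. A start was called CpG-rich when the 1 kb around it had at least 50% G+C and an observed to expected CpG ratio of at least 0.6, and 83.2% of paired genes, 76.7% of genes with a non-coding partner and 41.2% of the others met this. Among CpG-rich starts alone the WT shares were 96.5% (95.3 to 97.3%) for paired genes and 84.9% (84.1 to 85.7%) for the others. Among the remaining starts they were 84.0% (79.1 to 88.0%) and 40.8% (39.9 to 41.7%). The intervals did not overlap in either stratum. No test was made, since the genes of a pair mostly share their island, and since the genes of this comparison are not replicates.

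**Figure D1:**
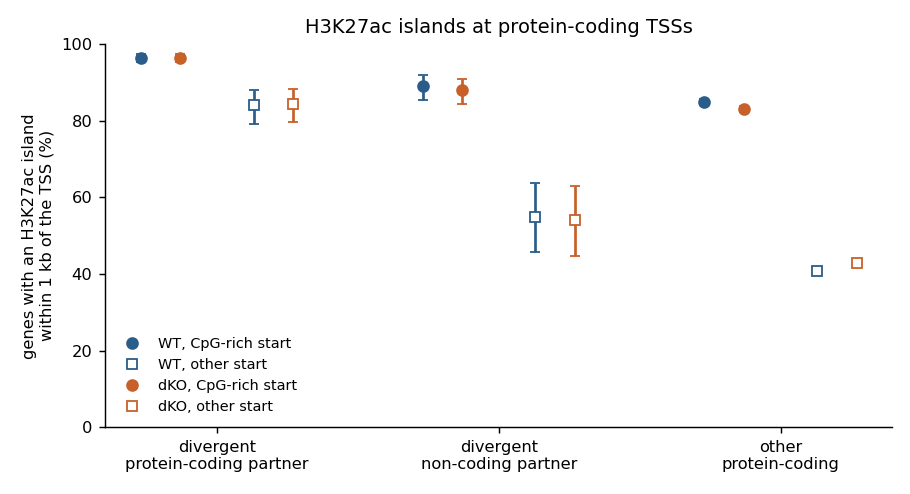
Share of genes (%) with an H3K27ac island within 1 kb of the TSS, for genes with a divergent protein-coding partner, with a divergent non-coding partner and for other protein-coding genes; filled circles are CpG-rich starts, open squares other starts, blue WT and orange dKO, bars 95% Wilson intervals. Paired genes had the highest share in both strata, 96.5% and 84.0% in WT, and the 2 genotypes differed by less than 3 percentage points in every class.

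The 42 pairs with no island in either list included several of tissue-restricted genes. By the gene lists they held 3 pairs of core histone genes (Hist1h2bq/Hist1h2ao, Hist1h2ap/Hist1h2br and Hist1h2ba/Hist1h2aa, the last pair known for its testis histones), 1 zinc finger pair (Zfp558/Mbd3l1) and Col4a4/Col4a3, which encode chains of the type IV collagen of basement membranes. Further examples, picked after the pairs were seen, were Kirrel2/Nphs1 (components of the filtration slit of the kidney), Hspb2/Cryab (small heat shock proteins of muscle and lens), Smc1b/Ribc2 (Smc1b is the meiotic cohesin subunit), Plcz1/Capza3 (sperm proteins), Bhmt2/Dmgdh (enzymes of methyl group metabolism in liver) and the imprinted pair Sgce/Peg10. Neither start was CpG-rich at 19 of these 42 pairs (45.2%), against 78 of the 743 pairs with islands in both lists (10.5%). Both starts were CpG-rich at 22 of the 42. Of all 623 pairs with both starts CpG-rich, 600 had islands in both lists. Most CpG-rich bidirectional promoters were thus accompanied by an island, but not every one. The 42 were not sorted by where their genes are expressed. The named examples therefore do not describe the rest, such as Bend6/Dst, Dusp3/1700006E09Rik and Tmem205/Ccdc159. Only uniquely mapped reads had been kept, and whether reads can be mapped uniquely at these promoters was not tested.

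At 4 pairs an island was present in 1 list alone. Ntrk3/Gm9885 (Ntrk3 is a neurotrophin receptor) had 2262 counts over 13.2 kb in WT and no island in dKO. Sncg/Mmrn2 (gamma-synuclein and an endothelial matrix protein) had 354 counts over 3.0 kb in WT. Pcsk4/Reep6 (Pcsk4 is a protease of male germ cells) had 703 counts over 6.6 kb in dKO, and Gm12355/Gsdma3 (a skin gasdermin) had 133 counts over 1.2 kb. A promoter absent from a list has no count there, so no ratio was formed.

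Signal at the promoters was read as the counts of all islands that touched the window from 1 kb below the lower TSS to 1 kb above the upper one, divided by the kilobases those islands cover. The median pair had 2540 counts over 5.4 kb in WT, or 430 counts per kb, and 1490 counts over 5.6 kb in dKO, or 234 counts per kb. These levels are not scaled, and the lists differ in depth, with 82668007 counts in WT islands and 57665047 in dKO islands. In WT the levels ran from 118 counts per kb at Sncg/Mmrn2 to 1803 at 5031425E22Rik/Mll5 (Mll5 is a chromatin regulator). Wbp11/BC049715 (Wbp11 is a splicing factor) followed with 1571 and Mttp/Rg9mtd2 (a lipid transfer protein and a tRNA methyltransferase) with 1433, while Il11/Tmem190 and the heat shock protein pair Hspa1a/Hspa1l were low with 126 and 127. The same 3 high pairs had 1006, 675 and 447 counts per kb in dKO. Compared with other protein-coding promoters with an island, paired ones were more densely acetylated over a shorter distance, with medians of 430 against 293 counts per kb and 5.4 against 6.6 kb in WT, and 234 against 175 counts per kb and 5.6 against 7.0 kb in dKO. Among CpG-rich starts the WT medians were 456 and 356 counts per kb.

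The islands of paired genes ended nearer to the TSS on the side of the gene body. In WT the median island ran 2.37 kb into a paired gene, 2.97 kb into a gene with a non-coding partner and 3.40 kb into other protein-coding genes, and in dKO the values were 2.48, 3.26 and 3.58 kb. Upstream of a paired gene lies the body of its partner, so the reach upstream is tied to that of the partner and was not compared. Within a pair the island was seldom symmetric. Its longer arm reached a median of 3.36 kb into a gene in WT and its shorter arm 1.73 kb, and the longer arm was at least 2 times the shorter at 45.6% of pairs. The long arm lay over the minus-strand gene at 50.3% of pairs. It lay over the same gene of the pair in WT and dKO at 502 of 741 pairs (67.7%). Among the 337 pairs whose WT arms differed at least 2 times this was 79.5%.

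**Figure D2:**
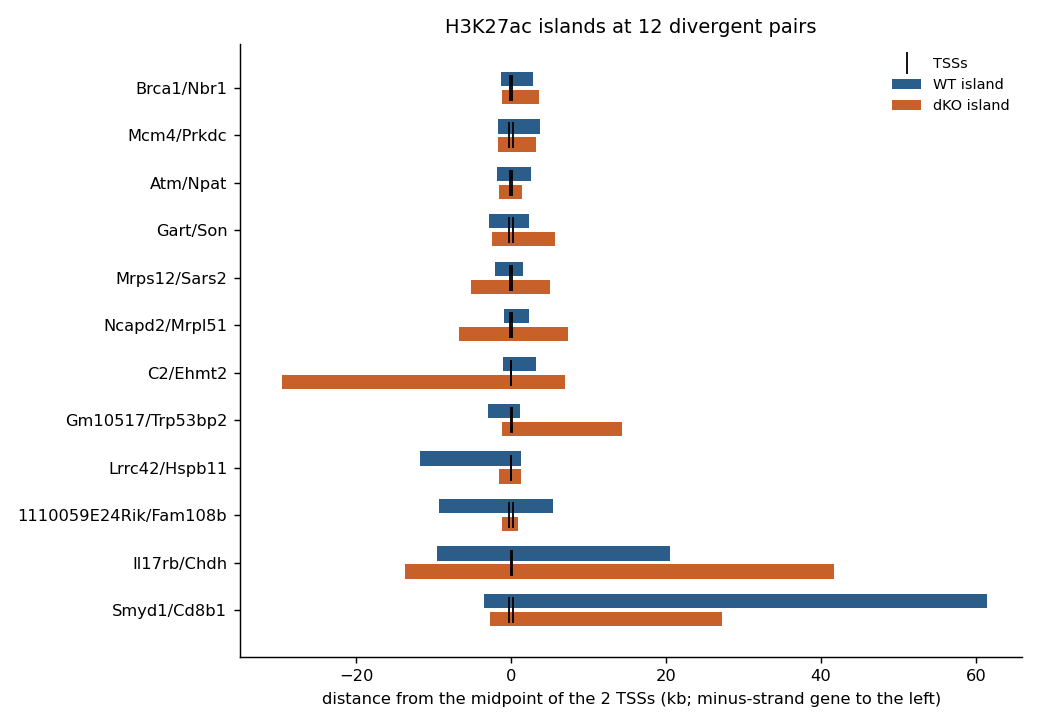
Islands (bars) at 12 named pairs, WT in blue above dKO in orange, in kb from the midpoint of the 2 TSSs (black ticks), with the minus-strand gene to the left. The WT island at Smyd1/Cd8b1 covers 65.0 kb and the dKO island 30.0 kb, and a separate dKO island of 27.2 kb at the TSS of Cd8a is not drawn. At C2/Ehmt2 the WT island covers 4.2 kb and that of dKO 36.6 kb, while at Brca1/Nbr1 the widths are 4.2 and 4.8 kb.

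The comparison of the genotypes asked whether acetylation of these promoters differs in cells that lack Tcf1 and Lef1. For each of the 743 pairs with islands in both lists, dKO counts per covered kb were divided by WT counts per covered kb after scaling each list to its total island counts. The log2 ratio had a median of -0.34 (middle 50% -0.60 to -0.06, range -1.69 to 1.41), and 79.1% of pairs were below 0. The share below 0 over all protein-coding promoters is not given here. A value of 0 is not neutral, since dKO islands cover 429 Mb and WT islands 393 Mb. After scaling to totals the ratio per kb of the whole lists is thus itself below 0. Scaled instead to the median ratio of merged regions, the median of the pairs was -0.32. A ratio of at least 1.5 was reached in favour of dKO at 9 pairs (1.21%), where the same held for 2.62% of all protein-coding promoters, and in favour of WT at 193 pairs (26.0%), against 17.8% of all protein-coding promoters. By summed island counts, in which island width counts too, 63 pairs (8.48%, against 12.5% of all) were higher in dKO and 120 pairs (16.2%, against 20.5% of all) were higher in WT, with a median log2 ratio of -0.31. Only 12 pairs (1.62%) were called the same way by both measures, and 39 (5.25%) were called in opposite ways. Among 166 divergent pairs over 1 kb and up to 3 kb apart these shares were 0% and 4.22%. Those over all protein-coding promoters are not given here, so these counts are not read as a trait of bidirectional promoters. All 9 pairs higher per kb in dKO had fewer counts in dKO, as their dKO islands were the narrower ones. When islands of both lists that overlap were first merged into regions, so that pieces of a longer island of the other list were summed too, 1 pair was at least 1.5 times higher per kb in dKO and 149 in WT. This alternative count was added after the data were seen, and the same count over all protein-coding promoters is not given here.

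Island width moved many single values. Only islands that touch the window are summed, so a wide island of 1 list can face just a part of the other list's islands. The ratio in counts can then overstate the difference over a locus. At 1110059E24Rik/Fam108b the WT island held 4481 counts over 14.8 kb and the dKO island 1123 counts over 2.0 kb, which gave log2 ratios of 1.41 per kb (1.32 to 1.51) and -1.48 in counts, and of -0.03 per kb over merged regions. Lrrc42/Hspb11 (Hspb11 is an intraflagellar transport protein) had 2767 counts over 13.0 kb in WT and 827 over 2.8 kb in dKO, with ratios of 0.99 and -1.22, and -0.04 over merged regions. Srgap2/Fam72a (Srgap2 acts on small GTPases), Apbb3/Slc35a4 and Rps27/Rab13 (a ribosomal protein and a small GTPase) had ratios of 0.77, 0.76 and 0.69 per kb, and -0.68, -0.68 and -0.86 in counts, while over merged regions the ratios per kb were 0.11, 0.76 and -0.36. In all 5 the dKO island was the shorter one on 1 or both sides of the promoter. At the other end the dKO islands were wider. At Gm10517/Trp53bp2 (Trp53bp2 binds p53), 2940 counts over 4.2 kb in WT stood against 2366 over 15.6 kb in dKO, with ratios of -1.69 per kb (-1.76 to -1.61) and 0.21 in counts, and of -0.39 per kb over merged regions. C2/Ehmt2, a complement component and the histone H3 lysine 9 methyltransferase G9a, had 2320 counts over 4.2 kb in WT and 5024 over 36.6 kb in dKO, with ratios of -1.49 and 1.63, the dKO island reaching 29.6 kb into the C2 side, and over merged regions the ratio per kb was -0.26. Ncapd2/Mrpl51 (a condensin subunit and a mitochondrial ribosomal protein) and F630043A04Rik/Mrp63 (Mrp63 is a mitochondrial ribosomal protein) had ratios of -1.53 and -1.58 per kb and 0.60 and 0.06 in counts, and of -0.29 and -0.35 per kb over merged regions. Of the 5 highest and 5 lowest ratios per kb, only those of Apbb3/Slc35a4 and Gm10373/Ttc35 thus passed 1.5 over merged regions. Gm10373/Ttc35 was lower in dKO by either measure, with -1.68 per kb and -0.36 in counts, but its WT island covered 0.8 kb only.

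Where width did not differ, the picture was narrower. At 185 pairs the covered widths in WT and dKO were within 400 bp of each other, a criterion added after the data were seen. Their median log2 ratio was -0.37 per kb (middle 50% -0.49 to -0.25) and -0.39 in counts, 95.7% were below 0, none was at least 1.5 times higher in dKO and 23 (12.4%, interval 8.43 to 18.0%) were at least 1.5 times higher in WT, where 0.154% and 10.3% of all protein-coding promoters under the same restriction were called. Wbp11/BC049715, with 2.2 kb in each list, had 3457 counts in WT and 1484 in dKO and a ratio of -0.70 (-0.79 to -0.61). Xpc/Lsm3 (a DNA damage sensor and an RNA-binding Sm-like protein) covered 13.6 kb in each list, with 4189 and 2387 counts and a ratio of -0.29 (-0.36 to -0.22). The same restriction to 2148 other protein-coding genes gave a median of -0.30, with 87.3% below 0, against -0.37 and 95.9% over 364 paired genes.

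**Figure D3:**
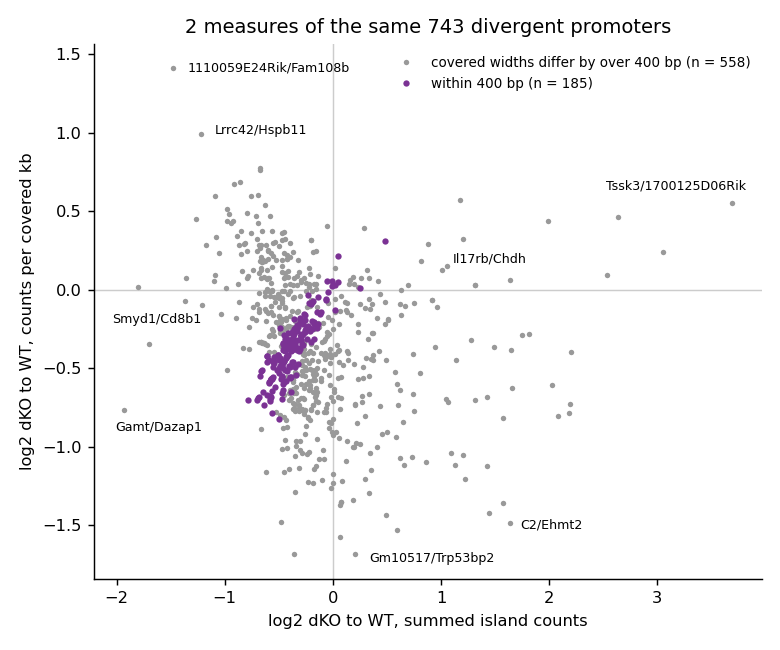
Log2 dKO to WT ratio per covered kb (vertical) against that of summed island counts (horizontal) for the 743 bidirectional promoters with islands in both lists, 1 point per pair; purple points are the 185 pairs whose covered widths were within 400 bp. Grey points spread to the upper left and lower right, where the measures go opposite ways, and the purple points lie mostly below 0 on both axes, with medians of -0.37 and -0.39.

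The ratio differed with the WT level, and at other promoters too. The 12767 genes that had an island in each list were split into 5 equal groups by WT counts per kb, with bounds at 201, 276, 365 and 511. Paired genes were more frequent in the upper groups, with 38.8% in the highest and 4.63% in the lowest, against 17.3% and 22.4% of other protein-coding genes. From the lowest to the highest group the median log2 ratio per kb of paired genes was 0.08, -0.06, -0.27, -0.34 and -0.52, and that of the other genes was 0.05, -0.08, -0.21, -0.38 and -0.53. Over all groups the medians were -0.34 for paired, -0.25 for genes with a non-coding partner and -0.18 for other genes. The WT level enters both the grouping and the ratio, so the order across groups is a description only. The part of the WT level in the difference between paired and other genes was not tested.

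**Figure D4:**
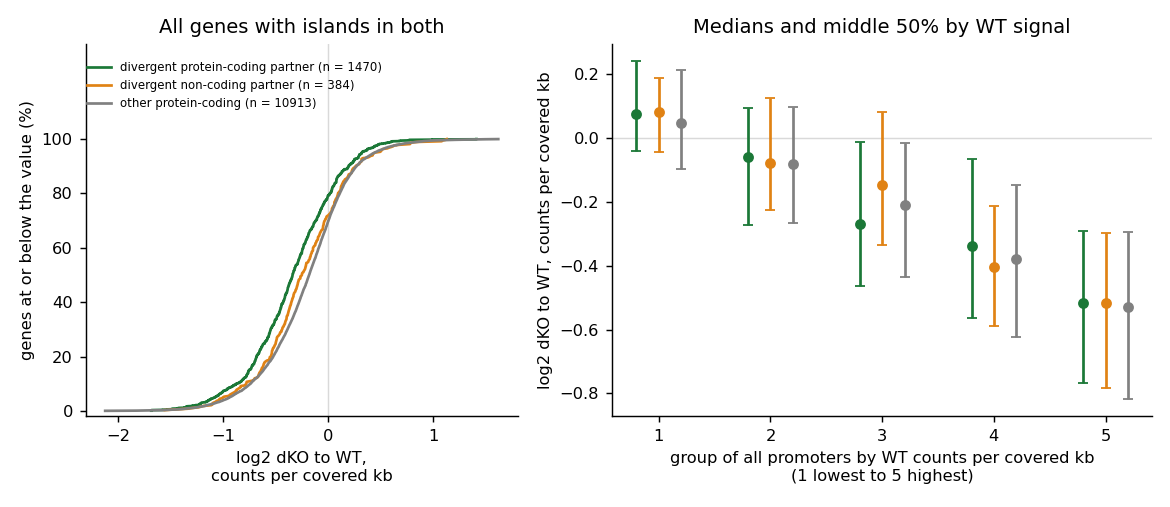
Left, cumulative share of genes (%) against the log2 dKO to WT ratio per covered kb for genes with a divergent protein-coding partner (green), a divergent non-coding partner (orange) and other protein-coding genes (grey). Right, medians (points) and middle 50% (bars) of that ratio in 5 equal groups of all promoters by WT counts per covered kb, from the lowest (1) to the highest (5); in the highest group the medians are -0.52 for paired and -0.53 for other genes, although over all genes they are -0.34 and -0.18.

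Of 16 divergent pairs known from textbooks, 6 met the rule. Those of DNA repair and replication genes had an island over both TSSs in each genotype. Brca1/Nbr1 (a double-strand break repair protein and an autophagy receptor, TSSs 194 bp apart) had 3631 counts over 4.2 kb in WT and 1977 over 4.8 kb in dKO, a log2 ratio per kb of -0.55 (-0.63 to -0.47) and of -0.36 in counts. Mcm4/Prkdc (a subunit of the replicative helicase and the DNA-dependent protein kinase that acts in antigen receptor rearrangement, 466 bp) had 2371 counts over 5.4 kb and 1288 over 5.0 kb, with -0.25 per kb (-0.35 to -0.15) and -0.36 in counts. Atm/Npat (the DNA damage kinase and an activator of histone genes, 307 bp) had 2267 counts over 4.4 kb and 1073 over 3.0 kb, with -0.01 per kb (-0.11 to 0.10) and -0.56 in counts. All 3 had fewer scaled counts in dKO, and for Atm/Npat the narrower dKO island left the ratio per kb at 0 within counting error. Gart/Son (a purine synthesis enzyme and a splicing factor) had 4380 counts over 5.2 kb and 2416 over 8.2 kb, with -1.0 and -0.34. Mrps12/Sars2 (a mitochondrial ribosomal protein and the mitochondrial seryl-tRNA synthetase) had 2147 counts over 3.6 kb and 1911 over 10.2 kb, with -1.15 and 0.35, and -0.67 per kb over merged regions. Of the remaining textbook pairs, 7 had overlapping 5′ ends at gene level, among them Hspd1/Hspe1 and Tap1/Psmb9, Tk1/Afmid overlapped by more than 1 kb, and Ung/Alkbh2 (2168 bp) and Cd3d/Cd3g (1362 bp) were too far apart.

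Grouped by function, bidirectional promoters of mitochondrial genes and of zinc finger genes had lower ratios per kb than all bidirectional promoters, but not lower ratios in counts. The lists were made from gene symbols, and a pair belongs to a list when either gene does. All 43 mitochondrial pairs (ribosomal proteins, respiratory chain subunits, import factors) had islands in both lists. Their median log2 ratio per kb was -0.55, against -0.34 over all bidirectional promoters, and 19 were at least 1.5 times higher in WT and none in dKO, where 26.0% of all bidirectional promoters and 17.8% of all protein-coding promoters were higher in WT. By counts the median was -0.21, against -0.31 over all, with 7 (16.3%) higher in WT and 3 (6.98%) in dKO. These shares were near the 16.2% and 8.48% of all bidirectional promoters, where 20.5% and 12.5% of all protein-coding promoters were called. The largest WT signals were at Atp5h/Kctd2 (an ATP synthase subunit, 10837 counts over 26.8 kb in WT and 10155 over 47.2 kb in dKO, ratio per kb -0.39), Tfb2m/Cnst (a mitochondrial transcription factor, 6548 over 22.2 kb and 2135 over 10 kb, 0.05), Mrps18b/Ppp1r10 (5407 over 8.8 kb and 5006 over 23.4 kb, -1.0) and Uqcrh/Lrrc41 (a complex III subunit, 4986 over 6.8 kb and 2191 over 5.4 kb, -0.33). Width again differed, with only 7 of the 43 pairs within 400 bp. Of 24 zinc finger pairs 23 had islands in both lists, with a median of -0.54 per kb and -0.27 in counts, and 9 were higher in WT. Zbtb25/Zbtb1 (Zbtb1 is required for lymphocyte development) had 11440 counts over 18.4 kb in WT and 7178 over 25.6 kb in dKO, with -0.63 per kb and -0.15 in counts.

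DNA replication and repair (38 pairs, all with islands in both lists) and translation and RNA processing (40 pairs, all with islands in both lists) had medians of -0.34 and -0.33 per kb, close to that of all bidirectional promoters, and of -0.37 and -0.30 in counts. Per kb, 5 and 11 of these pairs were higher in WT and 0 and 1 in dKO, where 26.0% of all bidirectional promoters were higher in WT and 1.21% in dKO. In the former list Rpa1/Smyd4 (a single-strand DNA-binding protein) had 5747 counts over 15.8 kb in WT and 4962 over 26.4 kb in dKO, and Recql/Golt1b (a DNA helicase) had 4216 over 15.8 kb and 1813 over 8.2 kb, with ratios per kb of -0.43 and 0.25 but of 0.31 and -0.70 in counts. In the latter Med22/Rpl7a (a Mediator subunit and a ribosomal protein) had 7159 counts over 14.8 kb and 5730 over 23.6 kb, with -0.47 and 0.20, and Psme2/Rnf31 (a proteasome activator and a subunit of the linear ubiquitin ligase) had 6837 over 23.6 kb and 5861 over 31.4 kb, with -0.11 and 0.30. Cell cycle pairs (24, median -0.17) and core histone pairs (14, of which 11 had islands in both lists, median -0.06) had ratios per kb nearer to 0. By counts the cell cycle median was -0.36 and the core histone median 0.02. Of the cell cycle pairs 4 (16.7%) were called in each direction by counts. Over all bidirectional promoters 16.2% were higher in WT and 8.48% in dKO, and over all protein-coding promoters 20.5% and 12.5%. Hist1h2bh/Hist1h3f covered 2.8 kb in each list with 1532 counts in WT and 873 in dKO, a ratio of -0.29. Hist2h2ac/Hist2h2be had 6343 counts over 9.2 kb and 3855 over 13.6 kb, with -0.76 per kb, and was the 1 histone pair at least 1.5 times higher in WT. Of the 4 pairs under collagen and matrix symbols, 3 hold no matrix gene (Lamtor2/Ubqln4, Itgb1bp1/Cpsf3 and Polk/Col4a3bp were caught by their symbols, median -0.91 per kb and -0.26 in counts), and the fourth, Col4a4/Col4a3, had no island.

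**Figure D5:**
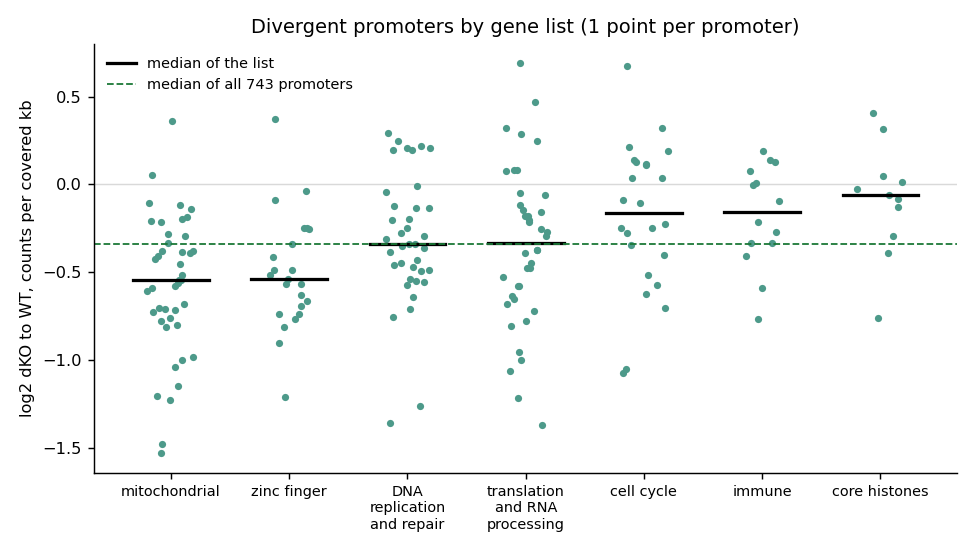
Log2 dKO to WT ratio per covered kb of each bidirectional promoter with islands in both lists (points, 1 per pair) by gene list, with the median of the list (black line) and of all 743 promoters (green dashes). The medians run from -0.55 for mitochondrial and -0.54 for zinc finger genes to -0.06 for core histone genes, against -0.34 for all, and each of the 7 lists drawn has points on both sides of 0.

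Few bidirectional promoters belong to immune genes, but 1 of them is a defining gene of these cells. Smyd1/Cd8b1 joins a histone methyltransferase of muscle with the beta chain of the CD8 coreceptor, with TSSs 603 bp apart and neither start CpG-rich. Its WT island held 29951 counts over 65.0 kb, of which 61.2 kb ran into the Cd8b1 side and over the TSS of Cd8a, and only 3.2 kb into Smyd1. Its dKO island held 9033 counts over 30.0 kb, with 27 kb on the Cd8b1 side and 2.4 kb into Smyd1. The log2 ratio was -1.21 in counts (-1.24 to -1.18) and -0.09 per kb (-0.13 to -0.06). The TSS of Cd8a lay in a separate dKO island with 7778 counts over 27.2 kb. The ratio in counts leaves that island out, although the WT island spans both TSSs, so it overstates the difference over the locus. A ratio over merged regions is not given for this pair. Il17rb/Chdh (the receptor for interleukin 25 and choline dehydrogenase) went the other way in counts, with 5781 over 30.0 kb in WT and 8134 over 55.4 kb in dKO, a ratio of 1.01 in counts and 0.13 per kb. Park7/Tnfrsf9 (a redox-sensing protein and the costimulatory receptor 4-1BB) had 8432 counts over 27.6 kb and 5361 over 29.2 kb, with 20.9 kb in WT and 21.5 kb in dKO on the Tnfrsf9 side and ratios of -0.22 and -0.13. H2-Ke2/Wdr46 lies in the major histocompatibility complex but encodes a chaperone subunit and a nucleolar protein, and had 8866 counts over 20.4 kb and 5176 over 20.6 kb, with -0.27. Over all 14 immune pairs, 13 of them distinct by symbol, the median was -0.15 per kb and -0.30 in counts. Per kb 2 were higher in WT, where this held for 26.0% of all bidirectional and 17.8% of all protein-coding promoters. By counts 5 were higher in WT (16.2% of all bidirectional and 20.5% of all protein-coding promoters). By counts 1, Il17rb/Chdh, was higher in dKO (8.48% and 12.5%).

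A few pairs hold genes that the study lists as differently expressed in dKO cells. These names were chosen on cells of the same genotypes and are not independent of the comparison. Of the upregulated names, 276 were found on chromosomes 1 to 19, where 1562 of 21418 protein-coding genes are paired. Among them 9 were paired genes in 8 pairs, with a median log2 ratio over pairs of -0.09 per kb and -0.02 in counts. Per gene the medians of these 9 were 0.00 and 0.20, against 0.08 and 0.22 for 245 upregulated genes without a divergent partner. Of the 230 downregulated names found there, 14 were paired genes in 13 pairs, with -0.15 per kb and -0.46 in counts over pairs. Per gene the medians of these 14 were -0.20 and -0.51, against -0.17 and -0.66 for 200 downregulated genes without a divergent partner. Tmem176b/Tmem176a, both on the upregulated list and encoding related membrane proteins, had 3659 counts over 20.4 kb in WT and 3120 over 19 kb in dKO, with 0.39 per kb and 0.29 in counts. Lyzl4/Vipr1 (Vipr1 is a receptor for vasoactive intestinal peptide and on the downregulated list) had 7257 counts over 33.2 kb and 1453 over 9.4 kb, with 0.02 per kb and -1.80 in counts. Any dKO island outside the window is left out of that ratio in counts, and a ratio over merged regions is not given for this pair. Abhd14a/Abhd14b had 5595 over 29.4 kb and 2141 over 17.0 kb, with -0.08 and -0.87, and Npc2/Isca2 (a cholesterol carrier and an iron-sulfur cluster protein) had 6626 over 16.0 kb and 3354 over 16.4 kb, with -0.50 and -0.46. Litaf/Snn holds a gene of each list, Litaf among the upregulated and Snn among the downregulated, and both TSSs shared an island with 3705 counts over 14.2 kb in WT and 3340 over 25 kb in dKO, where the reach into Litaf was 5.8 kb in both and that into Snn was 8.2 kb in WT and 19 kb in dKO.

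The starts of paired genes also differed in motifs, which the choice of pairs did not use. Exact matches were counted on both strands in the 300 bases from 250 before to 50 after each TSS. An ETS motif (CCGGAAG) was present at 28.2% of paired genes, 18.5% of genes with a non-coding partner, 9.34% of other genes and 10.9% of all. Among CpG-rich starts the shares were 30.4% (28.0 to 33.0%) for paired and 16.9% (16.1 to 17.7%) for other genes. For NRF1 (GCGCATGCG) they were 6.08% (4.91 to 7.52%) and 3.71% (3.31 to 4.14%), for YY1 (AAGATGGCG) 5.54% (4.42 to 6.92%) and 2.91% (2.56 to 3.30%), and for the CCAAT box 43.5% (40.8 to 46.2%) and 36.0% (35.0 to 37.1%). The GC box (GGGCGG) was equally common among CpG-rich starts, 72.7% (70.2 to 75%) and 72.7% (71.7 to 73.7%). TATAAA was rarer at paired genes, 3.54% (2.67 to 4.69%) against 5.94% (5.44 to 6.48%). For a cAMP response element (TGACGTCA, 4.77 and 3.59%) and an E box (CACGTG, 11.7 and 11%) the intervals overlapped. The Tcf/Lef motif CTTTGAT was found at 2.16% (1.5 to 3.1%) of CpG-rich paired and 2.15% (1.86 to 2.5%) of CpG-rich other starts. Over all starts these were 2.56% and 3.59%, and over all protein-coding genes 3.49%. None of the 9 motifs holds another. Both strands of the shared window are searched, so that 1 match can count for both genes of a pair. The intervals of paired genes are therefore too narrow, and whether they overlap others is not a test. With TSSs a median of 141 bp apart, the window of most paired genes also holds the start of the partner. The shares of paired genes can thus be raised by the layout alone, which was not tested. A match is a description of letters, not of binding.

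The list of each genotype held the defining genes of CD8+ T cells. Each of Cd3d, Cd3e, Cd3g, Cd8a, Cd8b1, Cd5, Lck and Ccr7 had islands within 1 kb of the TSS in both lists, with 6799 to 55234 counts in WT and 7778 to 17223 in dKO. Markers of other cells were not free of islands: both CD4+ T cell markers, 4 of 4 B cell markers (431 to 12334 counts in WT, 329 to 10954 in dKO), 4 of 4 myeloid markers (580 to 1057 and 178 to 697), 1 of 2 NK cell markers and 1 of 2 erythroid markers had one in both lists, while Ncr1 and Epor had none. The part of other cells in the values of bidirectional promoters was not tested. Tcf7 and Lef1 themselves had islands at the TSS in both lists, with 50113 and 53027 counts in WT and 18207 and 11100 in dKO, and an island at a TSS does not report whether floxed exons were deleted.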

How the data were processed

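H3K27ac ChIP-seq was performed by the authors on 4 WT and 3 dKO samples of sorted CD8+ T cells, beside 1 input of either genotype (9 samples), and the inputs were not analysed here. According to the study's methods the authors aligned reads with Bowtie2 2.2.5 to mm9, kept uniquely mapped reads of mapping quality above 10, pooled replicates and called islands with SICER 1.1 (window 200 bp, gap 400 bp, FDR 0.01). The deposited counts are whole numbers of reads per island, not scaled. Removal of duplicate reads is not given in the sources used here. SICER's gap joins nearby windows, so island width, and with it the counts per kb, depends on depth and on where borders fall, and a promoter without an island has no value.

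The genome and GENCODE vM1 annotation of NCBIM37 were used, whose chromosome lengths held all islands. A gene's TSS was its outermost 5′ end. Islands were assigned to a pair when they touched the window from 1 kb below to 1 kb above its TSSs. Each list was scaled to its total island counts (82668007 in WT, 57665047 in dKO), ratios of at least 1.5 were called, shares have 95% Wilson intervals and single ratios have 95% Poisson-based intervals. The Wilson intervals cover only the error from the number of pairs or genes counted. The Poisson-based intervals cover only the counting of reads, not the spread between replicates. Reads carry no molecular identifiers, so the Poisson-based intervals are too narrow if duplicate reads remain. Pooled lists allow no test between genotypes. Calculations used Python 3.11.15 with numpy 2.4.6 and pandas 2.3.3 and were tested on simulated data.

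The pairs, gene lists and named pairs were chosen with earlier results of these data known. Named were the textbook pairs, the 5 largest and 5 smallest ratios per kb among pairs whose counts over both lists reached 200, up to 3 pairs with an island in 1 list alone, the 2 pairs nearest to 1 kb on each side, the 2 closest, the 3 with the highest and the 3 with the lowest WT counts per kb, up to 4 of each gene list by WT counts, of which some are printed, and pairs holding genes the study lists as differently expressed. Of that study list only names were used. Other pairs are named where the text says so. The alternatives varied distance, window, island filter, measure, scaling and threshold. One marker gene and one of the textbook pairs are not reported here.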

Additional observations from a re-analysis of the deposited data

How the results depend on the processing

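Neither the 94.4% of pairs with an island in each list nor the 99.7% (WT) and 99.6% (dKO) with 1 island over both TSSs moved by more than 1 percentage point under any other window, island filter, distance or joining tried. The number of pairs was 1199 when overlapping 5′ ends were taken too. The median log2 ratio stayed between -0.37 and -0.31 under each alternative tried. Pairs higher in dKO, 9 as reported, numbered 63 by counts, 36 at the lower threshold tried and 0 among the 185 pairs with widths within 400 bp (an alternative chosen after seeing the data), and those higher in WT, 193 as reported, numbered 120, 386 and 23. Over merged regions, added likewise, 1 and 149 were higher. The 0 and the 23 cover fewer pairs by construction, and the ratios have no test. The WT reach into a paired gene was 2.71 kb when islands within 1 kb were joined. By summed counts the log2 ratio turned to -0.68 at Srgap2/Fam72a and Apbb3/Slc35a4, 0.21 at Gm10517/Trp53bp2, -0.86 at Rps27/Rab13, -1.22 at Lrrc42/Hspb11, 0.60 at Ncapd2/Mrpl51, 0.35 at Mrps12/Sars2, 0.063 at F630043A04Rik/Mrp63, 1.63 at C2/Ehmt2 and -1.48 at 1110059E24Rik/Fam108b. Over merged regions of both lists it turned to -0.36 at Rps27/Rab13, -0.041 at Lrrc42/Hspb11 and -0.034 at 1110059E24Rik/Fam108b. The turns by counts follow from the width, which enters counts and is divided out per kb, and the cause of the others was not tested. Of the alternative values of named pairs, these 13 included, 21 stayed within the counting interval of the reported value and 11 left it without a change of direction. No paired analysis was possible because the replicates of each genotype were pooled, and for the same reason no replicate could be left out.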

Other observations

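Large differences in summed island counts were also seen at pairs not described above, of which those given here were chosen after their values were seen. Any islands of the list with the narrower island that lie outside the window are left out of these counts. Ratios over merged regions are not given for these pairs, so the ratios in counts can overstate the difference over a locus. At Tssk3/1700125D06Rik (Tssk3 is a testis-specific kinase) 426 counts over 3.0 kb in WT stood against 3843 over 26.4 kb in dKO, with log2 ratios of 3.69 in counts and 0.56 per kb. Cyb561d2/Nprl2 (Nprl2 is a subunit of the GATOR1 complex, which restrains mTORC1) had 1401 counts over 3.8 kb and 8133 over 26.8 kb, with 3.06 and 0.24. Med29/Paf1 (a Mediator subunit and a subunit of the Paf1 elongation complex) had 2993 counts over 7.4 kb and 12984 over 33.4 kb, with 2.64 and 0.46. In these 3 pairs the dKO islands were the wider ones. The values of the islands at the window were higher in dKO by both measures, but per kb below a ratio of 1.5. In the other direction Gamt/Dazap1 (Gamt is an enzyme of creatine synthesis) had 4913 counts over 16.6 kb in WT and 900 over 7.4 kb in dKO, with -1.93 in counts and -0.76 per kb. At 4930442H23Rik/Dapk3 (Dapk3 is a kinase linked to cell death) 4915 counts over 12.8 kb stood against 1056 over 5.0 kb, with -1.70 and -0.34. At Tsc2/Nthl1 (the tuberous sclerosis protein tuberin and a DNA glycosylase) the WT island held 4261 counts over 27 kb and the dKO island 1234 over 8.2 kb, with -1.27 and 0.45.

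All 12 pairs called the same way by counts and per kb were lower in dKO. Besides Gamt/Dazap1, Wbp11/BC049715 and Mttp/Rg9mtd2 they included Mrpl32/Psma2 (a mitochondrial ribosomal protein and a proteasome subunit), with 1813 counts in WT and 788 in dKO over 1.4 kb in each list and a log2 ratio of -0.68, Wdhd1/Socs4 (a replication factor and a suppressor of cytokine signalling), with 2641 and 1223 over 2.4 kb and -0.59, and Alkbh1/1810035L17Rik (Alkbh1 is a nucleic acid demethylase), with 2126 over 3.6 kb and 936 over 4.2 kb and -0.89 per kb. There is no replicate check for any of them, and 79.1% of all pairs with islands in both lists were below 0 per kb. Calls per kb were mostly in this direction, with 193 pairs higher in WT and 9 in dKO. The share and direction of pairs called the same way are not given here over all protein-coding promoters. The direction of the 12 is therefore not read as a trait of bidirectional promoters.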
